A study of Arabidopsis thaliana with 15 samples.

Results

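Clade A protein phosphatases 2C (PP2Cs) are the co-receptors and main brakes of abscisic acid signalling, and their genes were followed here in seedlings of syd-5, a mutant of the chromatin remodelling ATPase gene SPLAYED (SYD), and of wild type (WT). The members were chosen by locus ID in the deposited expression table, and all 9 were found among its 33201 listed genes: ABI1, ABI2, HAB1, HAB2, PP2CA (also called AHG3), AHG1, HAI1, HAI2 and HAI3. Both RNA groups were whole Arabidopsis thaliana seedlings of ecotype Col-0, 14 days old and grown in long days on plates, syd-5 with 3 libraries and WT with 3. The labels give syd-5 no treatment, transgene or second allele, and it was the only mutant line with RNA. A further 9 libraries, which profiled GFP-tagged SYD, H3K27me3 and their inputs by chromatin immunoprecipitation, were not analysed here.

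In the absence of abscisic acid, these phosphatases hold kinases of the SnRK2 family inactive. When the hormone is bound by its soluble PYR/PYL receptors, the receptors lock onto the phosphatases and free the kinases, which then activate ABF transcription factors and ion channels. Several clade A PP2C genes are themselves induced by abscisic acid, which makes them both parts and outputs of the pathway.

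The table gives 1 expression value per gene and genotype, read here as FPKM (fragments scaled by transcript length and by library size, so that levels can be compared between genes), and a q-value (a p-value adjusted for multiple tests). No value per library, spread or depth is given with these values. It can therefore not be said whether libraries of the genotypes overlap, and the labels do not say whether libraries came from separately grown plants, so that any spread behind the p-values may be technical. A gene is said to have risen or fallen, or been called, where the authors' deposited table lists a q of 0.05 or below. By this rule 32.1% of 19868 tested genes were called, 18.0% as lower in syd-5 and 14.1% as higher, and the median log2 fold change of tested genes was -0.02. SYD itself (AT2G28290) stood at 2.53 FPKM in syd-5 and 13.1 FPKM in WT (log2 -2.37, q = 0.000351 from the authors' deposited table). The smallest p of the table, 5e-05, is shared by 2831 genes, so that q = 0.000351 does not rank them.

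Of the 9 clade A PP2C genes, 6 fell in syd-5 (ABI1, ABI2, HAB1, HAB2, HAI1 and HAI2), 1 rose (PP2CA) and 2 were marked as not tested in the table (AHG1 and HAI3, both below 0.4 FPKM). The 7 genes that were tested were thus all called, 6 of them lower, against 32.1% and 18.0% of all tested genes. Among the 15090 tested genes whose mean FPKM lay within the range of these 7 genes (1.73 to 77.2), the shares were close to these, at 31.1% called and 18.3% lower. The median log2 fold change of the 7 was -1.38. With at least a 2-fold difference required as well, 5 were called, all of them lower, where this rule called 11.6% of all tested genes and 8.27% as lower. AHG1 and HAI3, the lowest of the clade, never entered the test, so that these counts describe the expressed genes of the clade and not the clade as a whole.

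**Figure D1:**
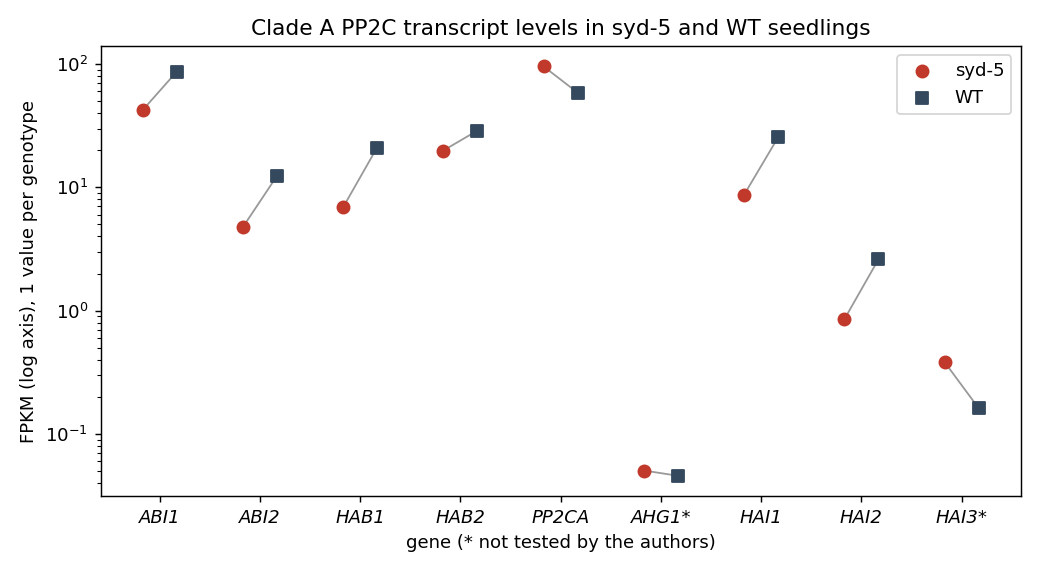
FPKM (log axis) of the 9 clade A PP2C genes, with 1 value per genotype, syd-5 as circles and WT as squares, joined by a line for each gene. The syd-5 circle lies below the WT square for ABI1, ABI2, HAB1, HAB2, HAI1 and HAI2 and above it for PP2CA, AHG1 and HAI3, of which AHG1 and HAI3 lie below 0.4 FPKM.

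The genes ABI1, ABI2, HAB1 and HAB2 form a branch of the clade, and all 4 fell. ABI1 (AT4G26080, TAIR10 chromosome 4, 13219961 to 13222284) is the founding member, in which a dominant mutation blocks responses to the hormone. It stood at 42.2 FPKM in syd-5 and 86.6 FPKM in WT (log2 -1.04, 2.05-fold lower in syd-5, q = 0.000351 from the authors' deposited table). By level it was gene 3942 of the tested genes in syd-5 and gene 1888 in WT. ABI2 (AT5G57050, chromosome 5, 23087235 to 23089627), its closest relative with partly shared function, had 4.75 FPKM in syd-5 and 12.3 FPKM in WT (log2 -1.38, q = 0.000351 from the authors' deposited table). The level of ABI1 was 8.90 times that of ABI2 in syd-5 and 7.02 times in WT, so ABI1 remained the more abundant of the pair in both genotypes.

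HAB1 and HAB2, named for their homology to ABI1 and ABI2, fell by unequal amounts. HAB1 (AT1G72770, chromosome 1, 27390022 to 27393281), which also restrains stomatal closure and germination responses, had 6.88 FPKM in syd-5 and 21.1 FPKM in WT (log2 -1.61, 3.06-fold lower in syd-5, q = 0.000351 from the authors' deposited table). HAB2 (AT1G17550, chromosome 1, 6034362 to 6037289) had 19.9 FPKM in syd-5 and 28.9 FPKM in WT (log2 -0.54, 1.45-fold lower in syd-5, q = 0.00123 from the authors' deposited table). This was the smallest change among the tested genes of the clade. The level of HAB2 was 2.89 times that of HAB1 in syd-5 and 1.37 times in WT. With no value per library, the difference between the folds of the HAB genes was not tested.

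The other branch of the clade holds PP2CA, AHG1 and the HAI genes, and its members went in different directions. PP2CA (AT3G11410, chromosome 3, 3583883 to 3585790), a major negative regulator of the hormone's action in seeds, seedlings and guard cells, had 95.8 FPKM in syd-5 and 58.6 FPKM in WT (log2 0.71, 1.63-fold higher in syd-5, q = 0.000351 from the authors' deposited table). It was the only clade A gene called as higher. Of tested genes with both values above 0, 7.32% had a larger log2 fold change. Among tested genes it stood at place 1741 by level in syd-5 and place 2815 in WT.

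The HAI genes were named as PP2Cs highly induced by abscisic acid, and they act in responses to low water potential. HAI1 (AT5G59220, chromosome 5, 23894404 to 23896619), also known as the senescence gene SAG113, had 8.71 FPKM in syd-5 and 25.5 FPKM in WT (log2 -1.55, 2.93-fold lower in syd-5, q = 0.000351 from the authors' deposited table). HAI2 (AT1G07430, chromosome 1, 2280835 to 2282828), whose product interacts with the potassium channel AKT1, had 0.851 FPKM in syd-5 and 2.60 FPKM in WT (log2 -1.61, q = 0.000351 from the authors' deposited table). These log2 changes lie near that of HAB1, although HAI2 stood at a level about an order of magnitude lower than HAI1 in both genotypes (HAI1 over HAI2 was 10.2 in syd-5 and 9.80 in WT). With log2(FPKM + 1), which dampens changes of low genes, the value for HAI2 was -0.96.

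HAI3 and AHG1 were barely detected. HAI3 (AT2G29380, chromosome 2, 12608702 to 12610167) was listed at 0.382 FPKM in syd-5 and 0.161 FPKM in WT, and the authors did not test it. AHG1 (AT5G51760, chromosome 5, 21026916 to 21029188), known mainly for its role in seeds and germination, was listed at 0.0504 FPKM in syd-5 and 0.0457 FPKM in WT and was not tested either. At values this low the log2 ratios of 1.24 for HAI3 and 0.14 for AHG1 carry no error and no direction is drawn from them.

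**Figure D2:**
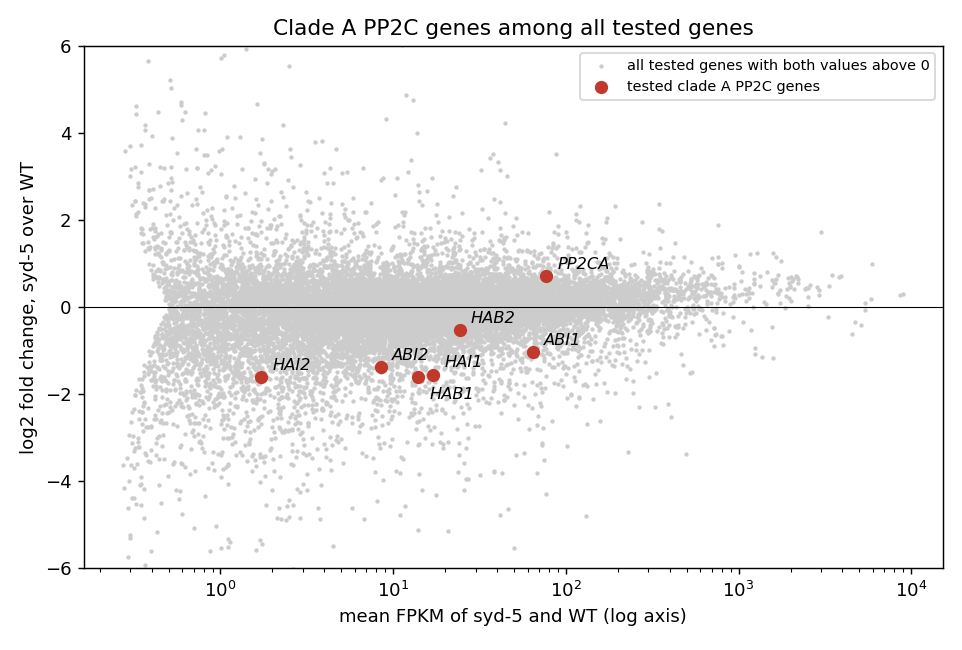
Log2 fold change of syd-5 over WT against the mean FPKM of both genotypes (log axis) for tested genes with both values above 0 (grey) and the 7 tested clade A PP2C genes (red, named). HAB1, HAI1 and HAI2 lie near -1.6, ABI2 and ABI1 between -1.4 and -1.0, HAB2 at -0.54 and PP2CA alone above 0, at 0.71 (22 grey genes lie outside the plotted range of 6 log2 units on either side).

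The order of levels within the clade was the same in both genotypes from the third place down: HAB2, HAI1, HAB1, ABI2, HAI2, HAI3 and AHG1. At the top the order was PP2CA before ABI1 in syd-5 and ABI1 before PP2CA in WT. The level of PP2CA was 2.27 times that of ABI1 in syd-5 and 0.677 times in WT. Neighbours in this order cannot be told apart or called equal, because no spread is given for any level.

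Summed over the 9 genes, clade A transcripts amounted to 179.6 FPKM in syd-5 and 236 FPKM in WT, a ratio of 0.761. Without PP2CA the sum was 83.8 FPKM in syd-5 and 177 FPKM in WT, 2.12-fold lower in syd-5. PP2CA made up 53.4% of the summed FPKM in syd-5 and 24.9% in WT. ABI1 made up 23.5% in syd-5 and 36.7% in WT. By these values, which come without spread, a single gene supplied most clade A transcript in syd-5, whereas no gene did so in WT. The branch of ABI1, ABI2, HAB1 and HAB2 summed to 73.8 FPKM in syd-5 and 149 FPKM in WT, and the branch of PP2CA, AHG1 and the HAI genes to 106 FPKM in syd-5 and 86.9 FPKM in WT. Within the branch of PP2CA the HAI genes alone summed to 9.94 FPKM in syd-5 and 28.3 FPKM in WT. In bulk samples such as these, fewer cells that express a gene and less of its RNA per cell cannot be told apart.

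**Figure D3:**
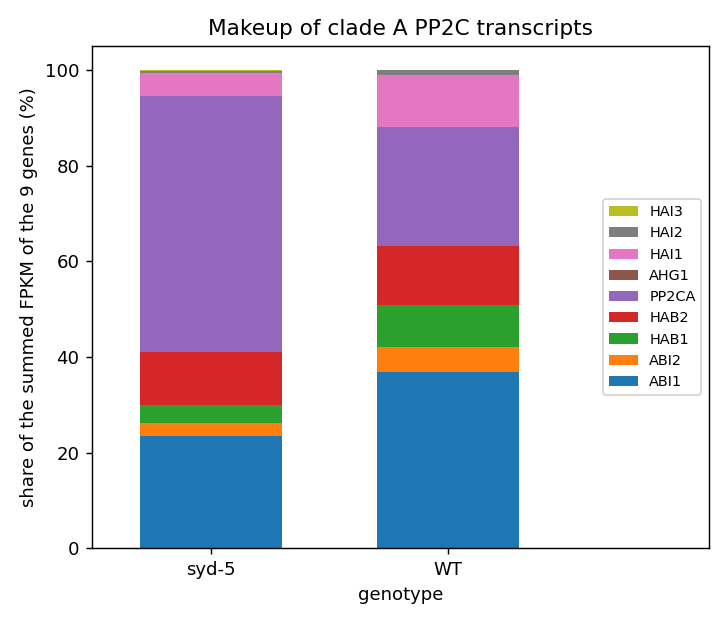
Share of the summed FPKM of the 9 clade A PP2C genes held by each gene, in percent, for syd-5 (left bar) and WT (right bar). PP2CA holds 53.4% of the syd-5 bar and 24.9% of the WT bar, and ABI1 holds 23.5% of the syd-5 bar and 36.7% of the WT bar.

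The tested genes for receptors that inhibit these phosphatases were higher or not called. Of 14 PYR/PYL genes 9 were tested, of which 4 rose, 0 fell and 5 were not called, with a median log2 fold change of 0.30, where 14.1% of all tested genes rose. PYL5 reached 153 FPKM in syd-5 against 50.5 FPKM in WT (log2 1.60, q = 0.000351 from the authors' deposited table). PYL4 had 133 FPKM in syd-5 and 61.2 FPKM in WT, and PYL6 had 15.4 FPKM in syd-5 and 6.95 FPKM in WT (both q = 0.000351 from the authors' deposited table). PYL8, the receptor gene with the highest mean level, stood at 158 FPKM in syd-5 and 124 FPKM in WT (log2 0.35, q = 0.0425 from the authors' deposited table). When the untested genes were included in the adjustment, PYL8 was no longer called (q = 0.0711, recomputed on p in the authors' deposited table). The summed FPKM of the receptor genes was 3.85 times that of the clade A phosphatase genes in syd-5 and 1.93 times in WT. These are ratios of transcript levels, and protein was not measured.

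The SnRK2 kinases are the substrates that clade A phosphatases switch off. SNRK2.2, SNRK2.3 and OST1 are the members most strongly activated by abscisic acid, and OST1 drives stomatal closure. SNRK2.2 had 158 FPKM in syd-5 and 131 FPKM in WT (log2 0.27, q = 0.135 from the authors' deposited table), SNRK2.3 had a log2 fold change of 0.15 with a span shared with another gene, and OST1 had 0.05. No call was made for these 3 genes. Of the 10 tested SnRK2 genes 1 rose, 3 fell and 6 were not called (median log2 fold change -0.03), a called share near the 32.1% of all tested genes. The members that fell were SNRK2.9 (6.13 FPKM in syd-5 and 11.9 FPKM in WT), SNRK2.7 (0.657 FPKM in syd-5 and 1.77 FPKM in WT) and SNRK2.5 (2.95 FPKM in syd-5 and 4.52 FPKM in WT). SNRK2.10 rose to 73.8 FPKM in syd-5, against 56.3 FPKM in WT.

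Of 7 listed genes for downstream transcription factors 5 were tested, 2 fell, 0 rose and 3 were not called (median log2 fold change -0.15). A share of 2 in 5 is near the 32.1% called among all tested genes. ABF3, which encodes an activator of genes with abscisic acid response elements, had 12.8 FPKM in syd-5 and 24.9 FPKM in WT (log2 -0.96, q = 0.000351 from the authors' deposited table). ABF2, an activator of the same family, had 14.4 FPKM in syd-5 and 21.3 FPKM in WT (log2 -0.57, q = 0.0015 from the authors' deposited table). ABF4 had 31.6 FPKM in syd-5 and 33.2 FPKM in WT and was not called, and its span is shared with another gene.

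Of 9 genes for synthesis of the hormone 5 were tested, 4 fell and 1, ABA2, was not called (median log2 fold change -0.56), where 18.0% of all tested genes fell. The other 4, NCED2, NCED5, NCED6 and NCED9, were not tested and lay below 0.2 FPKM in both genotypes. NCED3, which encodes a rate-limiting dioxygenase of synthesis under drought, fell by 3.44 on the log2 scale. Its level was 0.694 FPKM in syd-5 and 7.52 FPKM in WT. The other 3 changed less: AAO3, for the oxidase of the last step, by log2 -0.61 (with a shared span), ABA3, for the enzyme that supplies its cofactor, by -0.56, and ABA1, for zeaxanthin epoxidase, by -0.51. CYP707A genes encode the hydroxylases that break abscisic acid down, and all 4 were tested and fell, with a median log2 fold change of -3.02. CYP707A3 had 3.44 FPKM in syd-5 and 30.3 FPKM in WT (log2 -3.14), and CYP707A2 had 0.328 FPKM in syd-5 and 3.68 FPKM in WT (log2 -3.49, both q = 0.000351 from the authors' deposited table). CYP707A4 changed by log2 -2.91 (0.174 FPKM in syd-5 and 1.30 FPKM in WT). CYP707A1 changed by -1.10 (0.898 FPKM in syd-5 and 1.92 FPKM in WT). At levels this low the size of a fold is less certain. The hormone itself was not measured.

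**Figure D4:**
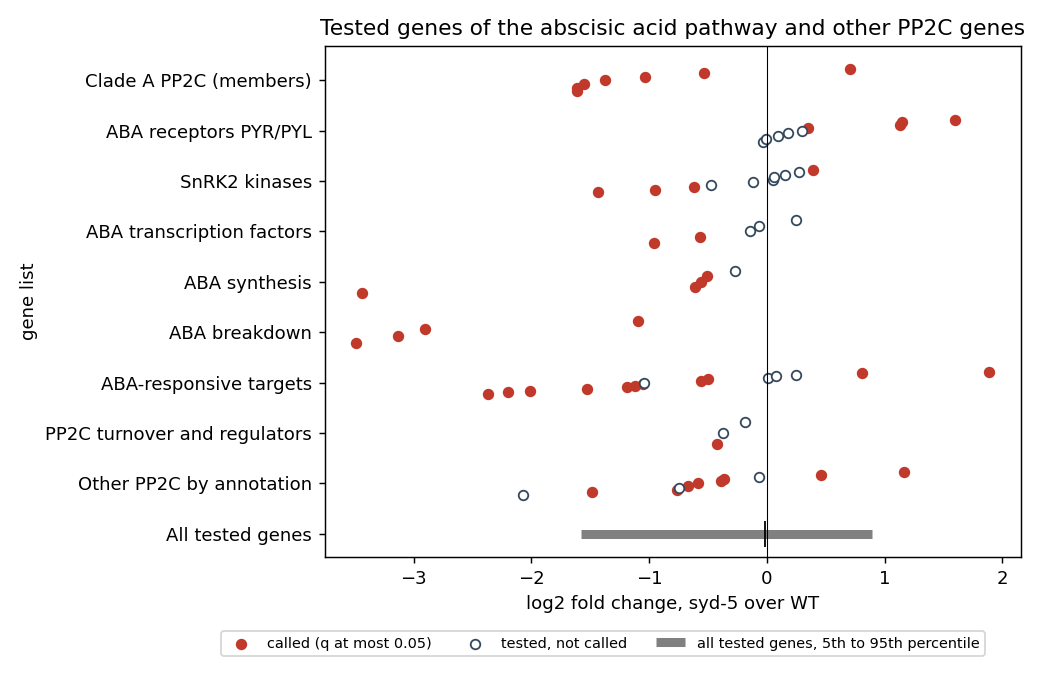
Log2 fold change of syd-5 over WT for tested genes of each list, filled where called and open where not, above the range of all tested genes (grey bar from the 5th to the 95th percentile, -1.58 to 0.90, with a tick at the median). Clade A PP2C genes lie left of 0 except PP2CA, tested receptor genes lie near or right of 0, and the 4 breakdown genes have the lowest median of these lists.

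Of 17 listed targets of abscisic acid 15 were tested, 2 rose, 9 fell and 4 were not called (median log2 fold change -1.05), where 18.0% of all tested genes fell. The cold and drought gene KIN2, the most abundant of the list, had 269 FPKM in syd-5 and 775 FPKM in WT (log2 -1.52, q = 0.000351 from the authors' deposited table). RD29A changed by log2 -2.20 and COR15A by -2.01, whereas RD29B rose by 1.88 from a low level (3.11 FPKM in syd-5 and 0.842 FPKM in WT). RD26, the other gene of the list that rose, changed by log2 0.81. KIN2 and COR15A have close copies, and their values are less certain. ATHB7 and ATHB12, homeobox genes whose products are known to act on clade A PP2C genes, were picked after their values were seen. ATHB7 had 14.1 FPKM in syd-5 and 32.0 FPKM in WT, and ATHB12 had 4.04 FPKM in syd-5 and 8.78 FPKM in WT (log2 -1.19 and -1.12, both q = 0.000351 from the authors' deposited table). The part of ATHB7 and ATHB12 in the levels of clade A genes, of which 6 fell and 1 rose, was not tested. Of the 3 ubiquitin ligase genes whose products act on clade A phosphatases, 1 fell, RGLG1 (9.59 FPKM in syd-5 and 12.8 FPKM in WT, q = 0.0312 from the authors' deposited table), and 2 were not called, PUB13 (23.1 FPKM in syd-5 and 26.2 FPKM in WT) and PUB12. Over these 7 lists beside the members, 51 genes were tested, of which 7 rose, 23 fell and 21 were not called, against 32.1% called among all tested genes.

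Outside clade A, the symbol or synonyms of 13 genes in the annotation name a PP2C, and this list need not cover the family. Of these 13 genes, 11 were in the table under their own ID and tested. Among these 11 genes, 2 rose, 6 fell and 3 were not called, with a median log2 fold change of -0.59. Among all tested genes 14.1% rose and 18.0% fell. AT2G30020 (AP2C1), for a phosphatase of stress MAP kinases, had 12.0 FPKM in syd-5 and 33.5 FPKM in WT (log2 -1.49, q = 0.000351 from the authors' deposited table). PLL4, a relative of POLTERGEIST, changed by log2 -0.76 and PP2CG1 by -0.67. AT5G66080 (APD9), a clade D gene, rose to 17.4 FPKM in syd-5, against 7.79 FPKM in WT (log2 1.16), and PP2C74 rose by 0.46. No test of a difference between clade A and these genes was made, so that lower expression is not shown to be particular to clade A.

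Markers of the guard cell lineage, which leads to the guard cells in which clade A phosphatases act, were lower in syd-5. The list covers the lineage and not mature guard cells alone. Of the tested clade A genes 6 were lower too, whereas PP2CA was higher. All 7 listed markers were tested and fell, with a median log2 fold change of -1.42, where 18.0% of all tested genes fell. The FPKM of these markers summed to 35.8 in syd-5 and 79.5 in WT. FAMA, which sets guard cell identity, had 19.3 FPKM in syd-5 and 35.6 FPKM in WT, and KAT1, a guard cell potassium channel gene, had 3.02 FPKM in syd-5 and 8.79 FPKM in WT (both q = 0.000351 from the authors' deposited table). MYB60 changed by log2 -1.06 and the stomatal spacing gene EPF1 by -2.49. Single markers ranged from 0.432 to 19.3 FPKM in syd-5 and from 1.53 to 35.6 FPKM in WT, with no marker at 0. Their part in the lower levels of clade A genes was not tested.

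**Figure D5:**
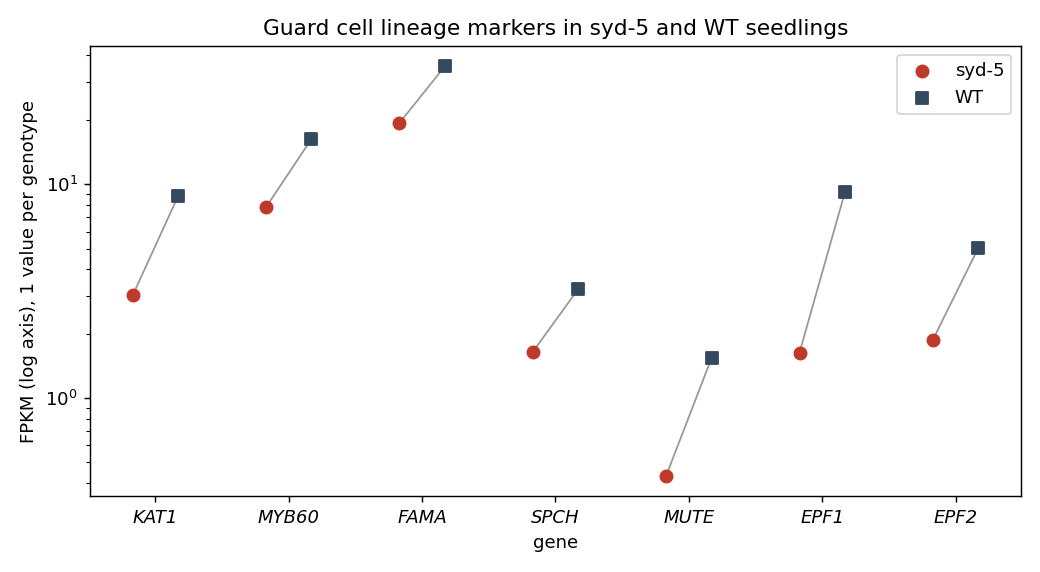
FPKM (log axis) of 7 guard cell lineage markers, with 1 value per genotype, syd-5 as circles and WT as squares. Each syd-5 circle lies below its WT square, and FAMA is the most abundant marker in both genotypes.

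Of 7 root markers 5 were tested, 1 rose (SHR) and 4 were not called, where 14.1% of all tested genes rose and 32.1% were called. The 7 root markers summed to 23.2 FPKM in syd-5 and 23.1 FPKM in WT. Leaf markers were high in both genotypes, with RBCS1A at 9983 FPKM in syd-5 and 8061 FPKM in WT, and of the 3 tested 1 rose (LHCB1.1), while RBCS1A and RCA were not called. All 3 were listed higher in syd-5, with a median log2 fold change of 0.31. Seed storage and oil body markers were low but listed higher in syd-5 for all 5 genes, at 0.0281 to 2.77 FPKM in syd-5 and 0 to 0.915 FPKM in WT. Their FPKM summed to 5.50 in syd-5 and 1.11 in WT. The median log2 fold change of the 3 tested, 3.20, was that of OLEO1 (0.846 FPKM in syd-5 and 0.0920 FPKM in WT, with a shared span). No direction is drawn from values this low. SESA1 and SESA3 were listed at 0 in WT, and the 3 tested seed markers were not called, with OLEO2 the nearest to a call (q = 0.0723 and unadjusted p = 0.0255 from the authors' deposited table). The part of these markers in the levels of clade A genes was not tested. Leaf and root markers were thus all listed above 0, as the label of whole seedlings implies, but root markers were low. Most of the root sum came from SHR and SCR (8.79 and 9.59 FPKM in syd-5, 6.49 and 11.2 FPKM in WT). CASP1 had 3.52 FPKM in syd-5 and 3.80 FPKM in WT. WOX5, PLT1, PLT2 and RHD6 lay at or below 0.696 FPKM in both genotypes, and PLT1 and PLT2 were not tested.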

How the data were processed

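RNA-seq of syd-5 (3 libraries) and WT (3 libraries) was deposited as a single comparison table without values per library. The submitters' processing notes name Bowtie2, bedtools, TopHat2 (2.0.4) and TAIR10 without roles, and do not say which program built the table. The authors' FPKM values carry no unit per the file headers: they are not whole, and the log2 of syd-5 over WT matches the deposited fold column within 5.00e-05. The deposited p-values and q-values were taken as they stand, since the planned tests on libraries could not be run. A recomputed Benjamini-Hochberg adjustment over tested genes differed by at most 5.22e-07. Log2 fold changes divide syd-5 FPKM by WT FPKM without a pseudocount. Depth is unknown.

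Deposited starts count from 0 (12528 starts equal the RefSeq TAIR10.1 start once 1 is added, 132 without), so 1 was added. RefSeq names matched 32208 of 33201 IDs (97.0%). Of PP2C genes outside clade A, those whose RefSeq symbol or synonyms name a PP2C were used, in place of hand-made lists of 2 other clades. From the list of PP2C turnover genes 2 loci that the annotation does not name were dropped. Both changes were made after values were seen.

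The members and lists were chosen with earlier results of these data known. All members are named. In other lists the called genes (at most 4, by smallest q, then larger fold) and the most abundant gene are named, and among other PP2C genes up to 3 largest rises and falls with a mean of at least 1 FPKM. Some further genes, such as ATHB7, ATHB12 and RD26, are named outside this rule. The code, in Python 3.11.15 with pandas 2.3.3, was tested on simulated data. How reads matching several genes were assigned is not given, so values of close paralogs are less certain.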

Additional observations from a re-analysis of the deposited data

How the results depend on the processing

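The 7 calls among clade A genes (1 higher, 6 lower) were also made at q of at most 0.01 (22.6% of tested genes), with the untested genes included in the adjustment, among genes whose mean reached 1 FPKM, and without genes whose spans overlap. Requiring a 2-fold difference left 5, all lower, and PP2CA and HAB2 were not among them (11.6% of tested genes passed this rule). Other pathway genes called numbered 30, and 26 to 29 under the alternatives tried; other PP2C genes numbered 8, and 6 to 8; guard cell markers numbered 7, and 5 to 7. The setting without overlapping genes in these 3 sets, and each alternative for the markers, were chosen after seeing the data. PYL8, RGLG1 and PAPP2C, a PP2C gene outside clade A, lost their calls when untested genes were included. The q-values were then 0.0711, 0.0521 and 0.0541 (recomputed on p in the authors' deposited table). Scaling both genotypes to the same sum shifts every log2 fold change by -0.13; that of PP2CA was then 0.58, and the summed clade A ratio 0.695 in place of 0.761. No member changed sign under the pseudocounts, the centring or the scaling. Adding 1 to each value moved HAI2 to -0.96, HAI3 to 0.25 and AHG1 to 0.0065, because such genes lie near or below the added value. Each of these moves was over 1.5 times. The log2 fold change of AHG1, 0.14 at first, also moved by over 1.5 times with 0.1 added (0.046) and with the scaling (0.0098).

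No paired analysis was possible because the table gives 1 value per genotype and no library. Leaving out replicates and size factor alternatives could not be run for the same reason. The planned count of response elements in promoters was not run because it needs promoter sequences, which were not used here. Without depth or spread, small differences between members cannot be resolved.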

Other observations

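Of the 14 nearest non-overlapping neighbours of the 7 called members, 8 were tested, 3 fell, 0 rose and 5 were not called, where 18.0% of all tested genes fell and 32.1% were called. Both neighbours of ABI1 fell: MEK1, a MAP kinase kinase gene whose listed span ends 28 bases from that of ABI1, had 8.33 FPKM in syd-5 and 15.3 FPKM in WT, and the immune receptor gene RPS2 had 4.06 FPKM in syd-5 and 10.0 FPKM in WT. The third call was AT5G59210 beside HAI1, with 12.2 FPKM in syd-5 and 16.8 FPKM in WT (q = 0.0148 from the authors' deposited table). The neighbours of ABI2 were not called (AT5G57040 at 149 FPKM in syd-5 and 143 FPKM in WT, AT5G57060 at 19.1 FPKM in syd-5 and 21.8 FPKM in WT), and those of HAI2 were not called either. The neighbours of PP2CA were not tested.

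HAI3, the only clade A gene on chromosome 2, lies 536 kb from SYD. PUB12, PLL4 and CYP707A2, named above, lie between SYD and HAI3. The part of this closeness in their levels was not tested. ABI3, a seed regulator of abscisic acid responses, was listed at 0.225 FPKM in syd-5 and 0.00588 FPKM in WT and was not tested, and ABI4 was listed at 0 in both genotypes.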
